A study of Mus musculus with 24 samples.

Results

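The autophagy and lysosome genes described here are 41 genes chosen by name, out of 41388 genes measured, for their roles in building autophagosomes, in selecting cargo and in lysosomal digestion. The choice was made with earlier results of these data known. All 41 symbols matched 1 Ensembl gene each, and all 41 had enough reads to be tested. RNA came from mouse liver, after oligo-dT selection of polyadenylated transcripts, in a factorial design of genotype and feeding. Control mice carried floxed alleles (fl/fl, labelled Control), and knockout mice are labelled LSALT2KO, a liver-specific loss of alanine transaminase 2, the enzyme encoded by Gpt2. Each genotype was given food ad libitum or was fasted for 18 h. The labels name 6 libraries in each of the 4 groups and give neither age nor strain nor the Cre driver. Every library title carries the letter M, which the titles do not explain. Of the 24 libraries 22 were used: 5 control fed, 5 control fasted, 6 knockout fed and 6 knockout fasted.

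Macroautophagy wraps cytoplasm and organelles in a double membrane, the autophagosome, which fuses with lysosomes so that its content is digested. The ULK1 complex starts the process, a lipid kinase complex with beclin 1 marks the site, and lipid transfer proteins and a ubiquitin-like conjugation system extend the membrane and attach ATG8 proteins to it. Cargo receptors tether mitochondria, aggregates or ubiquitinated proteins to ATG8, and the vacuolar ATPase acidifies the lysosome for its hydrolases. In liver the pathway is known to supply amino acids and lipids during food deprivation, and the transcription factors TFEB and TFE3 are known to bind E-box sequences at many of its genes.

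Promoters of 3 genes are shown because they carry the E-box and differ in how their genes responded to fasting in control livers: Bnip3 and Gaa passed edgeR's test, at an adjusted p under 0.05, as higher, and Lamp1, with several such boxes, did not pass it. DESeq2 called Lamp1 lower (adjusted p = 0.0418). The sequences are RefSeq promoter windows of GRCm38.p6, written 5′ to 3′ along the gene's strand, with the E-box CACGTG in capitals. The Bnip3 stretch is chr7:138909507-138909756 on the minus strand and ends just before the RefSeq start. The Gaa stretch is chr11:119267713-119267916 on the plus strand and ends 47 bases before the RefSeq start. The Lamp1 stretch is chr8:13158911-13159160 on the plus strand and ends just before the RefSeq start.
Bnip3: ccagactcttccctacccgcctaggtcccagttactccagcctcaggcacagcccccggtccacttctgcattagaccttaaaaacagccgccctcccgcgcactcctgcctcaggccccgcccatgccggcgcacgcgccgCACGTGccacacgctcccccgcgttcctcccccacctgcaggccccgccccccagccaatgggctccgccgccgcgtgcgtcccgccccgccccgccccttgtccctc
Gaa: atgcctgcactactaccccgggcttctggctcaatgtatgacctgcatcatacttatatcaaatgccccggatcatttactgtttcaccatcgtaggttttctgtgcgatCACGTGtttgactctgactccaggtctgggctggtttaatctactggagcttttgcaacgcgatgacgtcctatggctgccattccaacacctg
Lamp1: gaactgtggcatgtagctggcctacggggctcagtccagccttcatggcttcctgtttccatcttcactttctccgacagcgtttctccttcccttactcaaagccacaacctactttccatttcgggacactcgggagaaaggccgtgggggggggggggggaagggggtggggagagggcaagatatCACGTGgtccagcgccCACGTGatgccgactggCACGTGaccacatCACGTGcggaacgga

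The Bnip3 box begins 108 bases before the start and the Gaa box 140 bases before it. Lamp1 holds 4 boxes, at 61, 45, 28 and 15 bases before its start. RefSeq windows of 250 bases before to 50 bases after the start were at hand for 34 of the 41 genes, 39 windows in all. A gene was counted if any of its windows held the motif. CACGTG, which reads the same on both strands, lay in the windows of 13 of these 34 genes (38.2%), against 8.09% of 27025 genes with a window and 11.2% of the 11359 among them that were tested. The 8-base form TCACGTGA, which contains CACGTG, lay in 6 of the 34 (17.6%), namely Atg3, Atp6v0d1, Atp6v1a, Ctsa, Ctsd and Mcoln1, against 1.12% of all genes and 2.03% of tested genes. None of those 6 genes was called by edgeR with fasting in control livers, where 8.12% of all genes tested were called. Of the 13 genes with CACGTG, edgeR called 2, both higher, and 5 called genes of the 34 had a window without it. A link between the motif and the fasting calls was not tested. TFEB and TFE3 are known to bind E-boxes at many genes of this pathway, so the E-box shares only describe the chosen genes. The 10-base CLEAR form, in which TCACGTGA is preceded by G and followed by C, was in none of the 34 windows (0.37% of all genes, 0.748% of tested genes). On either strand, the FOXO motif TGTTTAC was in none of them (4.05% and 3.27%), nor was a direct repeat of AGGTCA with 1 base between the copies, the DR1 form (0.0481% and 0.0704%). The cyclic AMP response element TGACGTCA, searched likewise, was in 1 window, that of Atg5 (2.03% and 3.39%).

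Reads assigned to genes numbered 18.4 M in the shallowest and 55.3 M in the deepest of the 22 libraries. Gpt2 was examined first, in CPM (counts per M reads assigned to genes, scaled between libraries by TMM factors). It read between 307.1 and 446.9 in control fed libraries, 557.3 and 794.7 in control fasted, 48.27 and 78.04 in knockout fed, and 52.14 and 148.2 in knockout fasted, so the 2 genotypes did not overlap in either feeding state. The file of control fed replicate 6 was truncated and was not used. The library labelled control fasted replicate 4 was left out because it did not resemble liver: 6 kidney marker genes summed to 19700 CPM there and to at most 17.4 CPM in the 22, and 5 hepatocyte markers to 514 CPM against at least 66300 CPM in the 22. Markers of Kupffer cells and macrophages, cells rich in lysosomes, summed over 10 genes to medians of 192 CPM in control fed (163 to 266), 167 in control fasted (150 to 182), 235 in knockout fed (211 to 336) and 252 in knockout fasted libraries (171 to 349). None of the 10 was called in any comparison by edgeR, DESeq2 or limma voom with sample weights. At an unadjusted p under 0.05 there were 2 and 1 of the 10 with fasting in control and knockout livers, 3 and 9 with genotype in fed and fasted livers, and 1 for the interaction. In the same order the shares of all genes were 19.6% and 16.0%, 9.01% and 4.01%, and 4.69%. In other marker lists edgeR called some genes with fasting. Of 6 stellate cell markers Col3a1 fell in control and knockout livers (-1.33 and -1.45) and Col1a1 in control livers (-1.17), with list sums of 83.4 to 122 CPM in control fed and 57.4 to 98.1 CPM in control fasted libraries. Col1a1 was not called in knockout livers (-0.76). Col1a2 (-0.49 and -0.47), Dcn (-0.10 and -0.002), Des (-0.07 and 0.07) and Lrat (-0.10 and -0.55) were not called in either genotype. Of 5 endothelial markers Lyve1 rose in both genotypes (1.28 and 1.0). Kdr (0.46 and -0.10), Stab2 (0.37 and 0.39), Pecam1 (0.21 and 0.15) and Clec4g (0.06 and -0.08) were not called. Of 5 hepatocyte markers Apoa1 and Apob rose in control livers (0.71 and 0.44), where Alb (0.15), Ttr (-0.52) and Serpina1a (-0.08) were not called. Of 3 erythroid markers Alas2 fell in both genotypes (-0.76 and -0.47). Hba-a1 and Hbb-bs were not called, at -0.15 and -0.12 in control and 0.59 and 0.76 in knockout livers. Of 15 tested markers of other leukocytes, cholangiocytes and kidney, edgeR, DESeq2 and limma voom with sample weights called 0 with fasting, with 2 at an unadjusted p under 0.05 in control and 1 in knockout livers. The part of these cell types in the values below was not tested. The RNA is from bulk tissue, so fewer cells of a type and less RNA per cell cannot be told apart. Whether the libraries are from different animals is not in the labels, and p-values here reflect the spread among libraries, which may be technical.

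Per kilobase of annotated exon, Lamp1 and Ctsl stood highest. The exon length is that of the gene's annotation, not of the transcripts expressed, so the order of the genes depends on the annotation. Mean RPKM over the 22 libraries was 257 for Lamp1, an abundant glycoprotein of the lysosomal membrane, and 235.8 for Ctsl, which encodes cathepsin L. Gabarapl1, an ATG8 family gene, followed at 148.5, then the cargo receptor gene Sqstm1 (p62) at 120.6 and cathepsin D (Ctsd) at 119.7. At the other end stood the transcription factor gene Tfeb at 1.70 and Rb1cc1, encoding the FIP200 scaffold of the ULK1 complex, at 2.06. Among the ATG8 genes the mean RPKM ran from 148.5 for Gabarapl1 through 68.1 for Gabarap, 40.4 for Map1lc3a and 14.4 for Map1lc3b to 11.1 for Gabarapl2. By mean CPM, without division by length, Map1lc3b (108.3) stood above Map1lc3a (47.74). In the plot of levels per kilobase the fasted means of Bnip3 and Map1lc3a lie above their fed means in both genotypes.

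**Figure D1:**
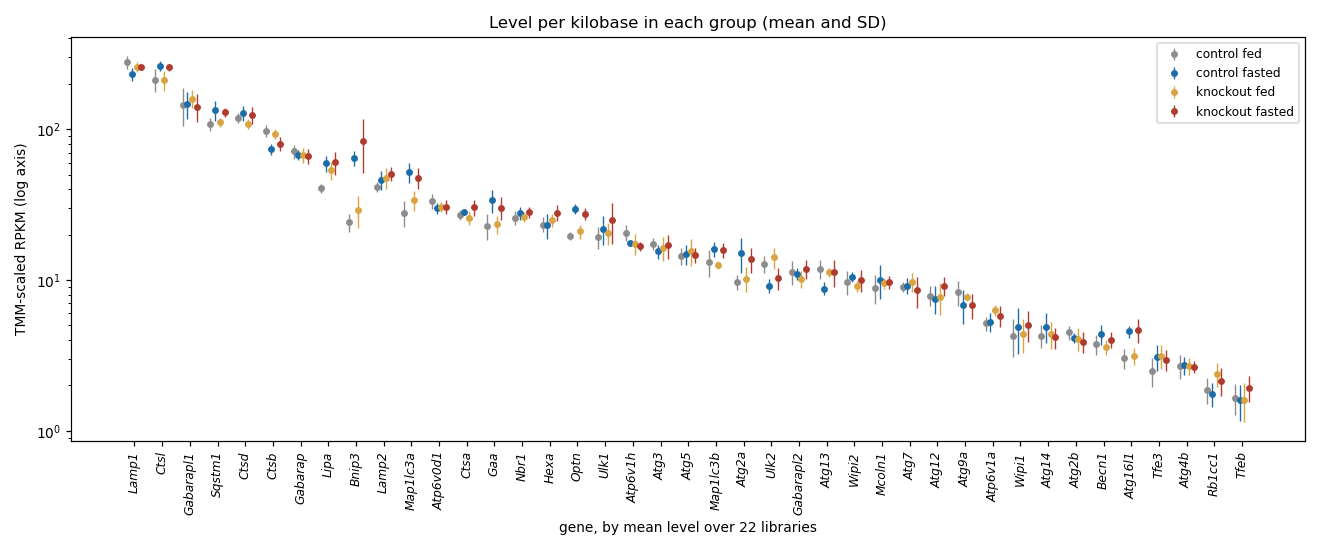
Mean level per kilobase of each of the 41 genes (y axis: TMM-scaled RPKM, log axis; x axis: genes ordered by their mean over 22 libraries), with points and bars for the mean and SD of each group (5, 5, 6 and 6 libraries). Lamp1 and Ctsl are highest and Tfeb lowest, and the fasted groups of Bnip3 stand above its fed groups.

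With 18 h of fasting in control livers, 10 of the 41 genes changed, 7 higher and 3 lower. Called genes are those with an adjusted p under 0.05 (Benjamini-Hochberg over the 16757 genes tested) in edgeR's quasi-likelihood test. The share called among all genes was 8.12% (3.99% higher and 4.13% lower). That share includes many weakly expressed genes. Among genes with a mean CPM of at least 1, edgeR called 1431 of 12354, and the same number, 10, of the 41. The genes that rose were Bnip3, Map1lc3a, Atg2a, Optn, Atg16l1, Gaa and Lipa, and those that fell were Ulk2, Atg13 and Ctsb. The median log2 fold change of the 41 was 0.06, against 0.00 for all genes, and 26 of the 41 lay above 0. For 7 genes the fed and fasted libraries did not overlap, 5 higher and 2 lower, where 7.91% of all genes showed no overlap. The 31 genes that were not called had log2 fold changes between -0.28 and 0.32.

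In knockout livers fasting changed 5 of the 41 genes, 4 higher and 1 lower, against 6.14% of all genes (2.88% higher and 3.26% lower). Among genes with a mean CPM of at least 1, edgeR called 1142 of 12354 there, and again 5 of the 41. Bnip3, Atg16l1, Map1lc3a and Optn rose and Ulk2 fell. All 5 were among the 10 called in control livers, in the same direction, which is 5 of 10 in one list and 5 of 5 in the other. The 2 fasting comparisons share no libraries. The median log2 fold change was 0.11, against 0.01 for all genes, and 26 of 41 genes again lay above 0. Fed and fasted groups did not overlap for 2 genes, Bnip3 and Map1lc3b, where 3.97% of all genes showed no overlap. Fold changes had the same sign in both genotypes for 27 of the 41 genes, with a Pearson correlation across the genes of 0.84, or 0.75 without Bnip3. That correlation is a description, since the genes come from the same libraries. In knockout livers limma voom with sample weights called 9 genes, 8 higher and 1 lower, the 5 above with Atg2a, Map1lc3b, Ctsl and Gaa. Scaled by library totals alone, edgeR called 3 there, and 36.7% of all called genes were higher in place of 46.9%. With the library labelled control fasted replicate 4 included, 5 genes were called in control and 1 in knockout livers.

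**Figure D2:**
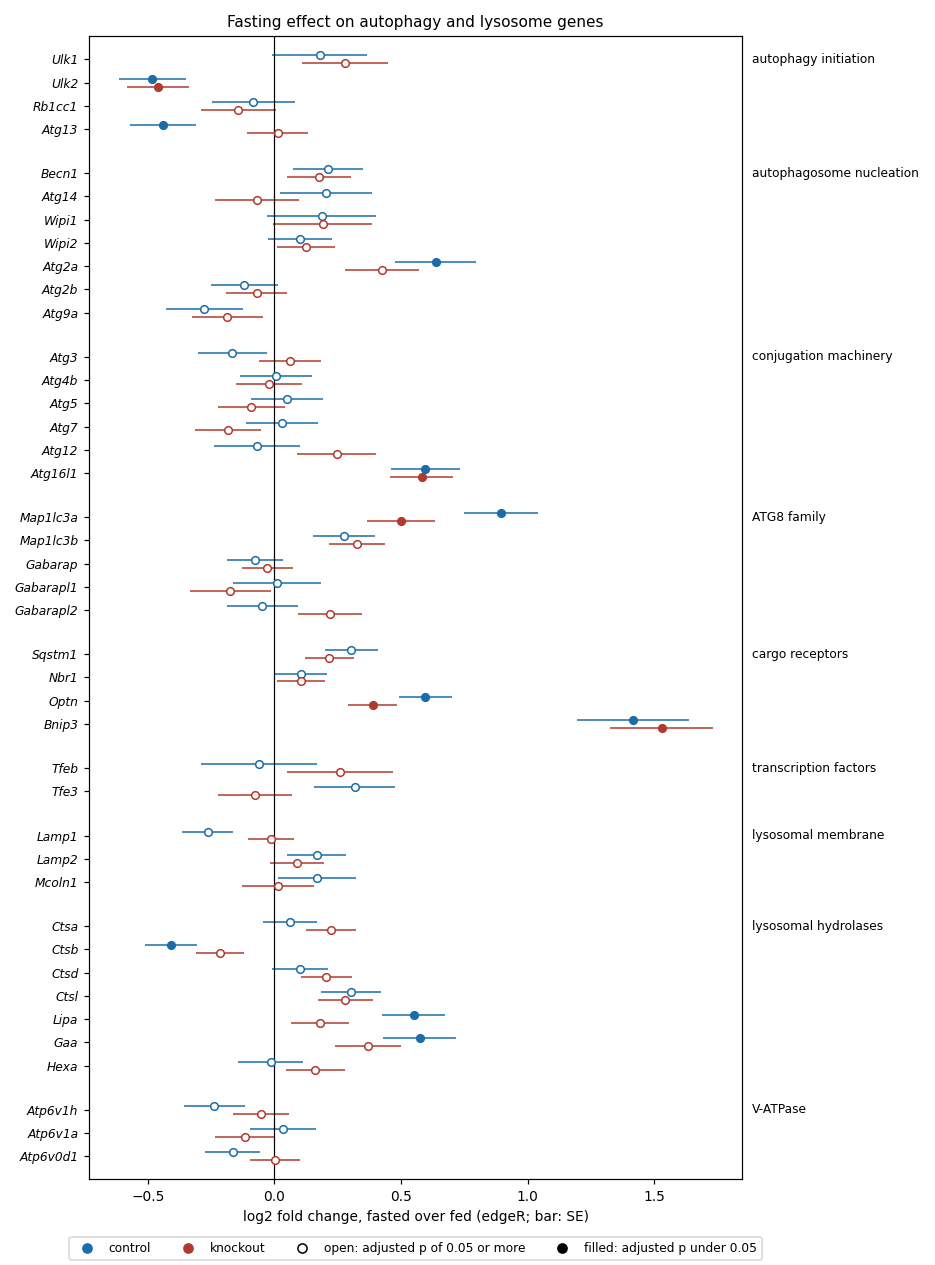
Log2 fold change with fasting (x axis, fasted over fed, edgeR; bars are standard errors) of the 41 genes grouped by role, in control (blue) and knockout livers (red), with filled points for an adjusted p under 0.05. Bnip3 is far to the right in both genotypes, at 1.41 and 1.53, and Ulk2 is to the left in both, at -0.48 and -0.46.

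Among the 4 cargo receptor genes, 2 rose in each genotype by edgeR's test and none fell. Over all genes 8.12% were called with fasting in control and 6.14% in knockout livers. The counts by role given here and below are small and were not tested against these shares. Bnip3 (chr7:138890836-138909519, GRCm38) encodes a receptor in the outer mitochondrial membrane that binds ATG8 proteins and serves mitophagy. In control fed libraries it stood at 50.99, 57.01, 50.73, 67.22 and 48.51 CPM, and in control fasted libraries at 155.1, 160.7, 140.1, 154.5 and 120.8 CPM. Every fasted library thus lay above every fed one, and the rise was 2.66-fold (log2 fold change 1.41 ± 0.22 SE, edgeR adjusted p = 0.000141). Knockout fed libraries ran from 45.68 through a median of 70.6 to 84.70 CPM, and knockout fasted libraries from 119.3 through 172.4 to 291.7 CPM. The knockout groups did not overlap either, and the rise was 2.88-fold (1.53 ± 0.20, adjusted p = 1.74e-05). The fasted knockout libraries were the most spread of the groups, with a coefficient of variation of 38.6%.

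Optn (chr2:5020642-5064051) encodes optineurin, a receptor for ubiquitinated cargo. It stood at 67.14, 78.35, 74.28, 72.11 and 76.56 CPM in control fed and at 103.6, 125.6, 112.8, 110.4 and 104.7 CPM in control fasted libraries. These groups were well separated, and the log2 fold change was 0.60 ± 0.10 (edgeR adjusted p = 0.000162). In knockout livers the range was 69.76 to 87.80 CPM fed (median 78.68) and 86.35 to 113.8 CPM fasted (median 103.4), so only the lowest fasted library reached into the fed range. There the log2 fold change was 0.39 ± 0.10 (edgeR adjusted p = 0.00818), and 0.33 with an adjusted p = 0.0664 when scaled by library totals. Sqstm1, whose p62 protein binds ubiquitinated cargo and is itself degraded with it, did not pass edgeR's test: its log2 fold change was 0.30 ± 0.11 in control (adjusted p = 0.074) and 0.22 ± 0.10 in knockout livers (adjusted p = 0.236). In control livers DESeq2 (adjusted p = 0.0334) and limma voom with sample weights (adjusted p = 0.0429) called it higher. Nbr1, a related receptor, gave 0.10 ± 0.10 and 0.11 ± 0.09.

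Of the 5 ATG8 genes, edgeR called Map1lc3a, in both genotypes, and no other. Map1lc3a (chr2:155276297-155278073) encodes LC3A, one of the proteins conjugated to the autophagosome membrane. Its control fed libraries read 37.37, 38.03, 32.45, 22.43 and 34.91 CPM and its control fasted libraries 70.51, 50.61, 70.79, 52.43 and 62.69 CPM. The groups did not overlap, and the rise was 1.86-fold (0.89 ± 0.15, edgeR adjusted p = 7.11e-05). Knockout fed libraries read between 35.96 and 52.59 CPM (median 37.59) and knockout fasted between 40.86 and 65.78 CPM (median 58.05). Knockout fed replicate 1, at 52.59 CPM, lay above the lowest fasted library, and the log2 fold change was 0.50 ± 0.13 (edgeR adjusted p = 0.0161, or 0.0545 with library totals). Map1lc3b, encoding the widely used autophagosome marker LC3B, had log2 fold changes of 0.27 ± 0.12 in control (edgeR adjusted p = 0.188) and 0.33 ± 0.11 in knockout livers (adjusted p = 0.0771, or 0.0455 by limma voom with sample weights, which called it). In knockout livers its fasted libraries, 102.4 to 141.6 CPM, all lay just above its fed libraries, 87.49 to 101.3 CPM. Gabarap, Gabarapl1 and Gabarapl2 lay between -0.17 and 0.22 in both genotypes and were not called.

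Conjugation and membrane growth contributed 1 called gene each. Atg16l1 (chr1:87755870-87792428) encodes the partner that directs the ATG12-ATG5 conjugate to the membrane, where ATG8 is attached. It stood at 22.57, 27.58, 32.62, 33.47 and 28.88 CPM in control fed and at 49.16, 45.55, 38.38, 44.11 and 41.94 CPM in control fasted libraries, with no overlap. The log2 fold change was 0.59 ± 0.14 (edgeR adjusted p = 0.00359), and 0.58 ± 0.12 in knockout livers (adjusted p = 0.0021). The knockout fed range of 26.47 to 36.11 CPM (median 28.4) just overlapped the fasted range of 35.73 to 55.79 CPM (median 44.52). The other conjugation genes were not called in either genotype. These were Atg3 and Atg7, encoding enzymes of the conjugation cascade, Atg4b, encoding a protease that processes ATG8, and Atg5 and Atg12. In control livers they spanned -0.17 to 0.05, and in knockout livers -0.18 to 0.25.

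Atg2a (chr19:6241668-6262335) encodes a protein that transfers lipid into the growing membrane. Its control fed libraries read 64.54, 76.50, 86.27, 74.85 and 70.01 CPM and its control fasted libraries 129.3, 113.1, 152.3, 70.82 and 113.3 CPM. Control fasted replicate 5, at 70.82, lay inside the fed range and the other 4 above it, and the log2 fold change was 0.64 ± 0.16 (edgeR adjusted p = 0.00868). In knockout livers the value was 0.42 ± 0.15 and did not pass (adjusted p = 0.0842). Its paralog Atg2b gave -0.12 ± 0.13 in control and -0.07 ± 0.12 in knockout livers. The remaining nucleation genes, Becn1 (beclin 1), Atg14, Wipi1, Wipi2 and Atg9a, were not called, with log2 fold changes from -0.28 to 0.21 in control and from -0.19 to 0.19 in knockout livers. Over 43.9% of the exon length of Becn1 lies opposite Cntd1, which however had 156 reads against 22118 for Becn1 over the 22 libraries.

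Of the 4 genes of the ULK1 complex, which starts autophagosome formation, 2 fell in control and 1 in knockout livers, and none rose. Over all genes 4.13% were called lower in control and 3.26% in knockout livers. Ulk2 (chr11:61775649-61855073), a kinase gene paralogous to Ulk1, stood at 89.28, 83.74, 72.27, 64.83 and 73.19 CPM in control fed and at 51.90, 55.04, 51.35, 50.80 and 65.51 CPM in control fasted libraries. Only control fasted replicate 6, at 65.51, reached the fed range, and the gene fell by 0.48 on the log2 scale (SE 0.13, edgeR adjusted p = 0.0174). In knockout livers it ran from 57.52 to 97.09 CPM fed (median 87.69) and from 49.15 to 77.58 CPM fasted (median 59.5), and fell by 0.46 (SE 0.12, adjusted p = 0.0149). Knockout fed replicate 6, at 57.52, was the 1 fed library inside the fasted range. Among controls the call was lost with fed replicate 1 left out (adjusted p = 0.0687) or with fasted replicate 5 left out (adjusted p = 0.0514).

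Atg13 (chr2:91674618-91710576), encoding the adaptor that links the kinases to FIP200, fell in control livers. Its fed libraries read 63.87, 46.78, 54.64, 47.99 and 46.45 CPM and its fasted libraries 44.24, 38.06, 39.14, 35.57 and 34.50 CPM, all below the fed ones (log2 fold change -0.44 ± 0.13, edgeR adjusted p = 0.0304). In knockout livers the value was 0.01 ± 0.12, with fed libraries at 44.89 to 53.57 CPM (median 49.48) and fasted at 33.82 to 63.97 CPM (median 49.76). The control call was lost when any of control fed replicates 1 and 3 or control fasted replicates 2, 3, 5 and 6 was left out (adjusted p between 0.0538 and 0.127). Ulk1 gave 0.18 ± 0.19 and 0.28 ± 0.17 and Rb1cc1 -0.08 ± 0.16 and -0.14 ± 0.15, in control and knockout livers, neither called. Atg101, a further subunit of the same complex that is not among the 41, fell in control livers (-0.62 ± 0.18, edgeR adjusted p = 0.0232).

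**Figure D3:**
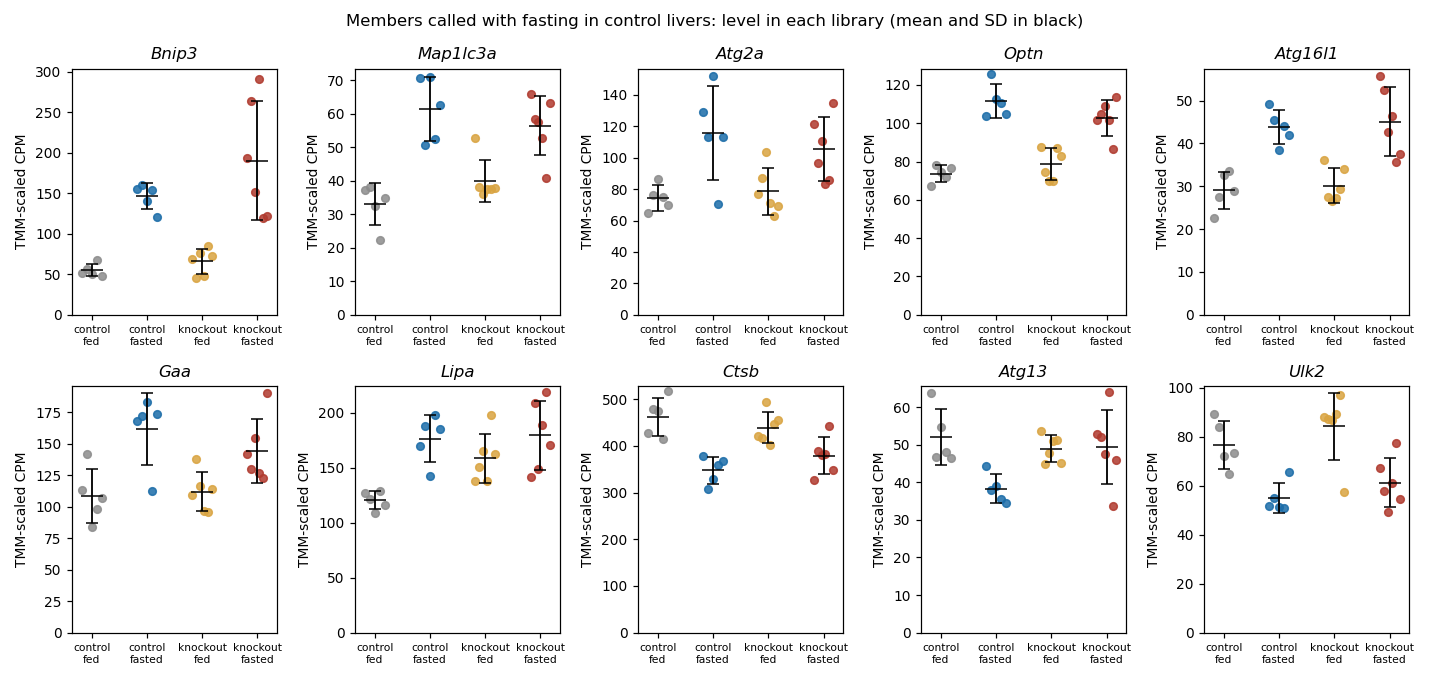
Level in each library (y axis: TMM-scaled CPM from 0; x axis: the 4 groups) of the 10 genes called with fasting in control livers, with the mean and SD in black. Bnip3, Map1lc3a, Optn, Atg16l1 and Lipa show fasted controls wholly above fed controls, and Ctsb and Atg13 wholly below.

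Of the 7 lysosomal hydrolase genes 3 changed in control livers, 2 higher and 1 lower, where 8.12% of all genes were called. In knockout livers, where 6.14% of all genes were called, edgeR called none of the 7. There 4 of the 7 had an unadjusted p under 0.05, as had 16.0% of all genes. DESeq2 called none of the 7 there, and limma voom with sample weights called Ctsl and Gaa. Lipa (chr19:34492318-34527474), the acid lipase that cleaves cholesteryl esters and triglycerides, read 127.2, 121.6, 109.1, 128.9 and 115.6 CPM in control fed and 169.4, 187.4, 142.0, 197.6 and 185.1 CPM in control fasted libraries, without overlap. The log2 fold change was 0.55 ± 0.12 (edgeR adjusted p = 0.00331). In knockout livers Lipa was 0.18 ± 0.11 (adjusted p = 0.51), with fed libraries at 137.4 to 197.9 CPM and fasted at 141.3 to 218.2 CPM. The knockout fed libraries all lay above the control fed ones, a genotype difference that edgeR did not call (adjusted p = 0.268). How many of all genes lay apart in this way between fed genotypes was not counted.

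Gaa (chr11:119267887-119285454), the acid glucosidase that digests glycogen in lysosomes, read 113.0, 141.7, 84.00, 98.48 and 107.3 CPM in control fed and 168.1, 172.5, 183.5, 112.2 and 173.4 CPM in control fasted libraries. As for Atg2a, control fasted replicate 5 stayed inside the fed range, and the log2 fold change was 0.57 ± 0.14 (edgeR adjusted p = 0.00765). The knockout value was 0.37 ± 0.13 and did not pass (adjusted p = 0.0954). Ctsb (chr14:63122462-63145919), encoding cathepsin B, read 427.5, 478.3, 474.1, 415.0 and 516.7 CPM in control fed and 377.3, 306.9, 330.0, 359.6 and 367.1 CPM in control fasted libraries, all below the fed ones. It fell by 0.41 (SE 0.10, edgeR adjusted p = 0.00846) in control livers and read -0.21 ± 0.09 in knockout livers (adjusted p = 0.223). Part of Ctsb, 16.2% of its exon length, overlaps Fdft1 on the opposite strand. Fdft1 had 117380 reads against 324267 for Ctsb over the 22 libraries. The strand setting of the counting is not given in the sources used here, and the part of this overlap in the Ctsb values was not tested. Kupffer cell markers stood at 163 to 266 CPM in control fed and 150 to 182 CPM in control fasted libraries, and their part in the hydrolase values was not tested. Ctsl gave 0.30 ± 0.12 in control and 0.28 ± 0.11 in knockout livers, and Ctsd 0.10 ± 0.11 and 0.20 ± 0.10, none passing edgeR's test. Ctsa and Hexa, encoding cathepsin A and a subunit of beta-hexosaminidase, lay between -0.02 and 0.22 and were not called.

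No gene of the lysosomal membrane, of the vacuolar ATPase or of the transcription factor pair was called with fasting in either genotype by edgeR. Of these 8 genes, Lamp1 had an unadjusted p under 0.05 in control livers, as had 19.6% of all genes, and DESeq2 called it there. In knockout livers none did, and neither DESeq2 nor limma voom with sample weights called any. Lamp1 read 552.5 to 697.3 CPM in control fed and 433.7 to 561.7 CPM in control fasted libraries (-0.26 ± 0.10, edgeR adjusted p = 0.11, DESeq2 adjusted p = 0.0418), and -0.01 ± 0.09 in knockout livers. Lamp2 and the calcium channel gene Mcoln1 lay between 0.02 and 0.17. The ATPase genes Atp6v1h, Atp6v1a and Atp6v0d1 lay between -0.24 and 0.03. Tfeb, at 4.998 to 14.06 CPM over all libraries, gave -0.06 ± 0.23 in control and 0.26 ± 0.21 in knockout livers, and Tfe3 gave 0.32 ± 0.16 and -0.08 ± 0.15. Neither messenger level reports on the nuclear entry of the proteins, a known step of their control.

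Loss of alanine transaminase 2 called none of the 41 genes in fed or in fasted livers, and neither did the interaction, which asks whether the fasting effect differed between genotypes. In each of these 3 comparisons edgeR called 1 of the 16757 genes, or 0.00597%. In both genotype comparisons that gene was Gpt2 itself. Its log2 fold changes were -2.615 in fed and -2.642 in fasted livers (edgeR adjusted p = 1.55e-08 and 1.23e-08). For the interaction the called gene was not Gpt2. At an unadjusted p under 0.05 there were 5 of the 41 in fed livers (12.2%, against 9.01% of all genes), 2 in fasted livers (4.88% against 4.01%) and 2 for the interaction (4.88% against 4.69%). DESeq2 and limma voom with sample weights also called none of the 41. These comparisons share libraries with the fasting comparisons and with each other.

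In fed livers the 5 smallest p-values belonged to Lipa, Atp6v1a, Rb1cc1, Atp6v1h and Tfe3, none passing. Lipa read 0.39 ± 0.12 higher on the log2 scale in knockout livers (edgeR adjusted p = 0.268), with 109.1 to 128.9 CPM in the controls and 137.4 to 197.9 CPM in the knockouts. The other 4 were 0.29 ± 0.12 for Atp6v1a, 0.34 ± 0.16 for Rb1cc1, -0.25 ± 0.12 for Atp6v1h and 0.33 ± 0.16 for Tfe3, with edgeR adjusted p between 0.482 and 0.531. In fasted livers the smallest were Atg13 at 0.37 ± 0.13, Hexa at 0.27 ± 0.12, Rb1cc1 at 0.29 ± 0.16, Bnip3 at 0.38 ± 0.21 and Atg12 at 0.28 ± 0.16, each with an adjusted p of 1.0. Fasted knockout libraries of Bnip3, 119.3 to 291.7 CPM, spanned the whole range of fasted controls, 120.8 to 160.7 CPM. In the same comparison the 10 markers of Kupffer cells and macrophages had a median log2 difference of 0.68, knockout over control. Of the 10, 9 had an unadjusted p under 0.05, as had 4.01% of all genes, and none was called. In fed livers the median of these 10 was 0.33. There 3 had an unadjusted p under 0.05, as had 9.01% of all genes, and none was called. The medians of 5 endothelial markers were 0.53 in fed and 0.37 in fasted livers, and those of 4 cholangiocyte markers -0.53 and -0.34. None of these was called by edgeR. The part of these cell types in the values of the 41 genes was not tested.

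For the interaction, the smallest p belonged to Atg13, whose fasting effect was 0.45 ± 0.18 higher in knockout than in control livers (edgeR adjusted p = 0.997). Lipa followed at -0.37 ± 0.17, Map1lc3a at -0.39 ± 0.20, Lamp1 at 0.25 ± 0.14 and Tfe3 at -0.39 ± 0.22, each with an adjusted p of 1.0. Atg2a, Gaa, Lipa, Atg13 and Ctsb, which edgeR called with fasting in control and not in knockout livers, are therefore not shown to respond differently in knockout livers. In knockout livers limma voom with sample weights called Atg2a (adjusted p = 0.0256) and Gaa (adjusted p = 0.0214).

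**Figure D4:**
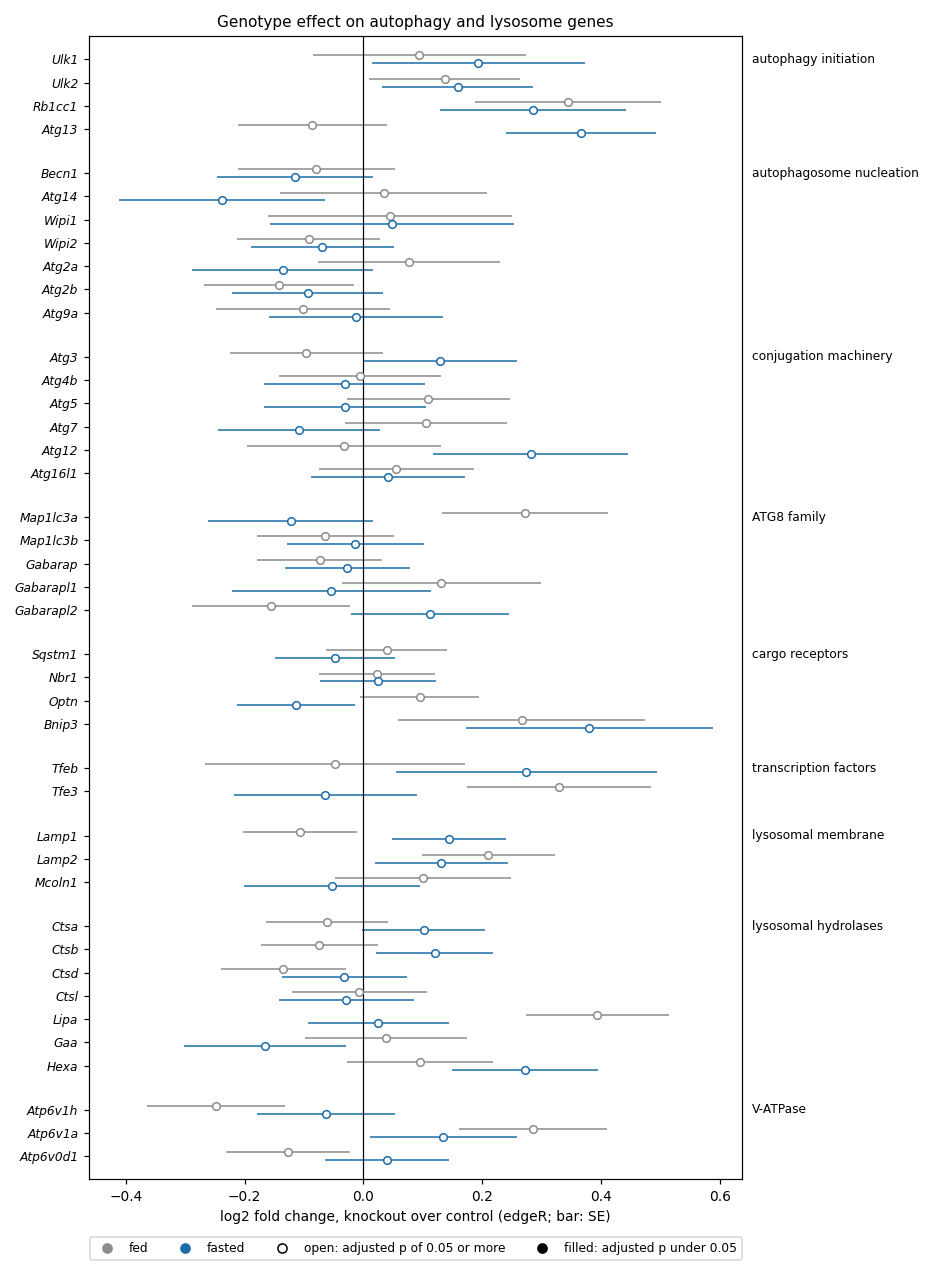
Log2 difference between knockout and control livers (x axis, edgeR; bars are standard errors) of the 41 genes grouped by role, in fed (grey) and fasted livers (blue). Every point is open, since no gene passed an adjusted p under 0.05, and Lipa in fed livers lies at 0.39.

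A wider set of 164 autophagy, lysosome and nutrient signalling genes that are not among the 41 was read the same way, and 161 of them were tested. This set too was chosen with earlier results of these data known. With fasting in control livers 18 were called (11.2%), 10 higher and 8 lower, and in knockout livers 15 (9.3%), 8 higher and 7 lower. Over all genes the shares were 8.12% and 6.14%. Neither genotype comparison nor the interaction called any of them with edgeR, DESeq2 or limma voom with sample weights. At an unadjusted p under 0.05 there were 13, 7 and 6 of the 161 in fed livers, in fasted livers and for the interaction, where the shares of all genes were 9.01%, 4.01% and 4.69%. Among 17 further receptor genes, 3 rose in control and 2 in knockout livers and none fell. Bnip3l, the paralog of Bnip3 that encodes the mitophagy receptor NIX, rose by 0.54 ± 0.15 in control (edgeR adjusted p = 0.0238) and by 0.63 ± 0.14 in knockout livers (adjusted p = 0.00372). Its control call was lost on leaving out control fed replicate 1 or 5, or replicate 2 or 5 of the fasted controls (adjusted p 0.0517 to 0.109). Phb2, an inner-membrane prohibitin with a role in mitophagy, rose by 0.34 and 0.31 in control and knockout livers. Its call was lost among controls with fed replicate 3 or 4 or fasted replicate 3 or 6 left out (adjusted p 0.0531 to 0.0856), and in knockouts without fed replicate 4 or 6 or fasted replicate 1, 3 or 5 (0.0521 to 0.0857). With library totals it was lost in both (0.0959 and 0.212). Bcl2l13, another mitochondrial receptor, rose by 0.61 in control livers.

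Among 38 further hydrolase and cofactor genes, 2 rose and 4 fell in control livers, and 1 rose and 4 fell in knockout livers. Of all genes 3.99% rose and 4.13% fell in control livers, and 2.88% rose and 3.26% fell in knockout livers. Psap, the precursor of the saposins that assist sphingolipid digestion, rose by 0.43 ± 0.10 in control (edgeR adjusted p = 0.00497) and by 0.35 ± 0.09 in knockout livers (adjusted p = 0.0162). Gm2a, encoding the activator of ganglioside digestion, had a log2 fold change of -0.75 ± 0.18 in control (edgeR adjusted p = 0.00543) and -0.60 ± 0.16 in knockout livers (adjusted p = 0.0185). In control livers Ctsf (cathepsin F) also rose (0.59) and Acp5, an acid phosphatase, fell (-0.60). In knockout livers Npc2, which binds cholesterol in the lysosome, and Glb1 (beta-galactosidase) fell (-0.49 and -0.72). The Glb1 call was lost without knockout fed replicate 6 (adjusted p = 0.103) or knockout fasted replicate 4 (adjusted p = 0.067), and the Gm2a call in knockout livers without knockout fed replicate 3 (adjusted p = 0.0547). Psap in knockout livers was lost without knockout fed replicate 4 (0.0521) or knockout fasted replicate 6 (0.0633), and with library totals (adjusted p = 0.11).

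In the list of 22 membrane and sorting genes, 2 rose and 1 fell in control livers, where 8.12% of all genes were called. Of the same 22 genes, 1 rose and 1 fell in knockout livers, where 6.14% of all genes were called. Sort1, encoding the sorting receptor sortilin, had the largest fold change of them, at -0.83 ± 0.18 in control (edgeR adjusted p = 0.00161) and -0.71 ± 0.16 in knockout livers (adjusted p = 0.00357). Npc1, which exports cholesterol from lysosomes, rose by 0.59 and Litaf by 0.52 in control livers, and Scarb2, the carrier of glucocerebrosidase, by 0.48 in knockout livers. Of 17 tested further ATPase subunits, Atp6v1g1 fell in control (-0.50) and Atp6v0a2 rose in knockout livers (0.49). In the 31 tested further autophagy genes, 1 rose and 2 fell in control livers (Fyco1 0.37, Atg101 -0.62, Plekhm1 -0.58) and 1 rose and 1 fell in knockout livers (Vamp8 0.40, Zfyve1 -0.40). With library totals the calls of Vamp8 (adjusted p = 0.0838), Fyco1 (0.128) and Atp6v0a2 (0.0976) were lost. Fyco1 and Plekhm1 encode adaptors for the transport of autophagosomes and their fusion with lysosomes, Vamp8 a fusion protein, and Zfyve1 a marker of the site where autophagosomes form.

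Several of these calls were lost on leaving out any 1 of several libraries. Among controls, Atg101 was lost without fed replicate 1, 2 or 4 or fasted replicate 1 or 3 (adjusted p 0.0513 to 0.0756), and Plekhm1 without fed replicate 1, 2 or 4 or fasted replicate 2 or 5 (0.0562 to 0.111). Litaf was lost without fed replicate 2, 3 or 4 or fasted replicate 1, 3 or 6 (0.0504 to 0.0954), and Atp6v1g1 without fed replicate 2 or 3 or fasted replicate 2 or 3 (0.0726 to 0.0898). Fyco1 was lost with 1 of 11 libraries left out: fed controls 1 to 4, fasted controls 1, 3, 5 and 6, and fed knockouts 1, 4 and 5 (0.0501 to 0.121). Among knockouts, Atp6v0a2 was lost without fed replicate 3, 4, 5 or 6 or fasted replicate 1, 2, 5 or 6 (0.0505 to 0.0937), and Zfyve1 without fed replicate 2 or 5 or fasted replicate 1 (0.0567 to 0.0623).

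Of 36 nutrient signalling and transcription genes, 2 rose in control livers, and 2 rose and 1 fell in knockout livers. The shares called over all genes were 8.12% in control and 6.14% in knockout livers. Ppara, the nuclear receptor for fatty acids that is known to drive the fasting response of liver, rose by 0.76 ± 0.15 in control (edgeR adjusted p = 0.000601) and by 0.67 ± 0.14 in knockout livers (adjusted p = 0.00119). Nr1h4, encoding the bile acid receptor FXR, rose by 0.50 in control livers. In knockout livers Nprl3, a subunit of the GATOR1 complex that restrains mTORC1, rose by 0.69, and Tsc1, a subunit of another mTORC1 inhibitor complex, fell (-0.45). The Tsc1 call was lost with control fed replicate 1, knockout fed replicate 2, 4, 5 or 6, or knockout fasted replicate 1, 2 or 4 left out (adjusted p 0.0506 to 0.125).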

How the data were processed

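Liver RNA libraries were grouped by their titles. Per the submitters' processing notes, the authors made the deposited read counts per gene with bcl2fastq, STAR (2.5.1a) and Subread featureCounts (1.4.6-p5) on GRCm38. The sources used here do not give the annotation release or strand setting. The deposited CPM and RPKM values, per the file headers, were checked to be counts per M reads of the library total and that value per kilobase of exon, and were used only for that check. Symbols came from GENCODE M21 and promoters from RefSeq. No 2 libraries were duplicates.

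Counts were tested with edgeR 4.0.16 (R 4.3.3): TMM factors (0.877 to 1.08), a low-count filter (filterByExpr, minimum count 10, minimum total 15), and 1 robust quasi-likelihood fit of 4 groups without covariates. Genes with a Benjamini-Hochberg adjusted p under 0.05 over 16757 genes were called, and errors are standard errors. Reported levels are TMM-scaled CPM or RPKM. The procedure was tested on simulated data. Named were all called members, the 5 smallest p where fewer than 5 were called, and up to 4 called genes of each further list. Members and lists were chosen with earlier results of these data known. Alternatives were RLE factors, library totals, 2 other filters, DESeq2 1.42.0, voom of limma 3.58.1 with sample weights, fits of the compared groups alone, 23 libraries, title-number blocks, and each library left out.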

Additional observations from a re-analysis of the deposited data

Results flagged for a closer look

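Within the 4 groups, 16 of 164 sets of values had a highest or lowest library that stood far from the rest by Dixon's test, where chance gives about 1 in 20, and 9 libraries were concerned. In control fasted replicate 2, Map1lc3b (144.1 CPM), Ctsa (143.1 CPM) and Atp6v0d1 (61.0 CPM) were high and Lamp1 (433.7 CPM) was low. Control fasted replicate 5 had the low Gaa value of 112.2 CPM, and control fasted replicate 6 the high Ulk2 value of 65.51 CPM. Control fed replicate 3 was high for Wipi1 (28.2 CPM) and Atg4b (29.32 CPM).

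In knockout fed replicate 6, Ulk2 (57.52 CPM) and Becn1 (19.9 CPM) were low and Gabarapl2 (29.58 CPM) was high. Knockout fed replicate 5 was high for Rb1cc1 (47.72 CPM) and Lamp2 (601.1 CPM), and knockout fed replicate 1 for Map1lc3a (52.59 CPM). Among fasted knockouts, replicate 2 was high for Atg14 (18.83 CPM) and replicate 4 low for Gabarapl1 (154.3 CPM).

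The library labelled control fasted replicate 4, which entered no comparison, held 19700 CPM of kidney markers, against at most 17.4 CPM in the 22 libraries used.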

How the results depend on the processing

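Fasting called 10 of the 41 genes in control livers and between 8 and 11 when each of the 22 libraries was left out in turn. In knockout livers it called 5, and between 5 and 7 on leaving out a library. With the kidney-like library included (23 libraries) it called 5 in control and 1 in knockout livers. In knockout livers library totals called 3 and limma voom with sample weights called 9. No named result reversed. Of 15 called results of the 41 genes, 4 kept their call in every alternative: Bnip3 in both genotypes and Map1lc3a and Ctsb in control livers. Calls lost with 23 libraries and in no other alternative were Atg16l1, Atg2a, Gaa, Lipa and Optn in control livers and Atg16l1 and Ulk2 in knockout livers. Atg13 in control livers was also lost with limma voom and sample weights (adjusted p = 0.0513). Of 30 named results of the further genes, 7 kept their call throughout. No alternative called a named member result for genotype or the interaction. Over all genes, fasting called 1360 in control and 1029 in knockout livers, but 805 and 379 with 23 libraries. Genotype in fed livers called 1 gene with edgeR, 5 with library totals, 14 without the low-count filter, 68 with DESeq2 and between 1 and 13 on leaving out a library, the 13 without control fed replicate 4. For genotype in fasted livers and for the interaction DESeq2 called 3 and 6 genes, where edgeR called 1 each. With 23 libraries edgeR called 0 genes in each of these 3 comparisons (1074, 1164 and 964 at an unadjusted p under 0.05), and for the interaction 0 or 1 on leaving out a library. The labels give no replicate number that is shared between groups. Libraries with neighbouring title numbers formed 10 clusters that crossed the groups, and the labels do not say that they mark litters. With these clusters as a random block in limma voom, 10 genes were called in control and 5 in knockout livers, and no named call was lost.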
